A study of Mus musculus with 16 samples.

Results

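This report describes 9 mouse genes in GFP+ intestinal stem cells (ISCs) after vertical sleeve gastrectomy (VSG), a stomach-reducing operation, or sham surgery. The genes are 5 that mark injured or repairing intestinal epithelium (Clu, Ly6a, Anxa1, Anxa3 and Il1rn) and 4 of the YAP pathway (the targets Ctgf and Cyr61 and the coactivators Yap1 and Wwtr1). They were chosen by gene symbol from the 48440 genes listed in each table, and each of the 9 symbols matched 1 row. The question was whether ISCs take on a regenerative state after surgery. Clu, Ly6a, Cyr61 and the other members showed no VSG-sham difference that passed the test in the duodenum, the jejunum or the ileum where they could be tested.

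The cells came from female Lgr5eGFP mice, whose GFP is expressed from the Lgr5 locus of stem cells, so the sort took GFP+ stem and progenitor cells. All mice, sham mice included, carried the GFP allele and had eaten a 60% high-fat diet for 16 weeks before surgery. Tissue was taken 4 weeks after VSG or sham surgery, after an overnight fast and 15 minutes after a liquid meal. In the sham operation the stomach was handled but not cut. The methods put animals at 8 to 16 weeks of age, with no age for each mouse. With 16 weeks of diet and 4 weeks after surgery, these mice were past that range when tissue was taken. From 7 mice, 16 libraries were used, with 4 VSG and 2 sham libraries each in the duodenum and the jejunum and 2 of each in the ileum. Each library is a 6 cm segment of 1 mouse, and libraries with the same surgery and number in different segments are from 1 mouse. Dead, apoptotic, immune and endothelial cells had been gated out before RNA was taken.

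After damage, the crypt can rebuild itself from cells that switch to a fetal-like program, in which classic stem cell genes fall and Clu, Ly6a and annexin genes are made. Yap1 and Wwtr1 (TAZ) carry this switch. The Hippo kinases hold both proteins in the cytoplasm, and when these kinases are off they enter the nucleus, bind TEAD transcription factors and turn on targets such as Ctgf and Cyr61. In a healthy small intestine cells in this state are rare.

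The sequences before the starts of Cyr61, Yap1 and Wwtr1 are shown because TEAD factors bind DNA at the motif GGAATG, printed in capitals and searched on both strands, where it reads CATTCC on the opposite strand. Of the 9 genes, 5 (Anxa1, Il1rn, Cyr61, Yap1 and Wwtr1) had a RefSeq promoter window on GRCm38.p6, cut here to the 250 bases before the start. The motif was found in at least 1 window of all 5 genes, for which no share over all genes was counted. By window it was found in 6 of 8, against 12.6% of 32851 RefSeq windows of the same length. Some of the 8 windows overlap, and those of Wwtr1 hold the same match. A match describes these letters and does not show that a TEAD factor binds there, which was not tested. All 3 windows below are on the minus strand, written 5′ to 3′ and lie outside the annotated gene. The match begins 103 bases before the start in Cyr61 (chr3:145649986-145650235), 141 bases before it in Yap1 (chr9:8004597-8004846) and 136 bases before it in Wwtr1 (chr3:57575911-57576160).
Cyr61: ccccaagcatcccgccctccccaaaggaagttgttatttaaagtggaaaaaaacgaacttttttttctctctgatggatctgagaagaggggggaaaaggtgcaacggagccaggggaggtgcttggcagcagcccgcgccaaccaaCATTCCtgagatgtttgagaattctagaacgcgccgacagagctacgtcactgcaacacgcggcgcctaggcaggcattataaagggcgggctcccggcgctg
Yap1: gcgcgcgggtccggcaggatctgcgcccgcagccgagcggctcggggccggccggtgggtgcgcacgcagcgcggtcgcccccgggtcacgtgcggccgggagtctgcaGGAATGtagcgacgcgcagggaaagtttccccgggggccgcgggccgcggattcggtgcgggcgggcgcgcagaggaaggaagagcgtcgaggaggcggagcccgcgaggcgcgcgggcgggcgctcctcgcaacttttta
Wwtr1: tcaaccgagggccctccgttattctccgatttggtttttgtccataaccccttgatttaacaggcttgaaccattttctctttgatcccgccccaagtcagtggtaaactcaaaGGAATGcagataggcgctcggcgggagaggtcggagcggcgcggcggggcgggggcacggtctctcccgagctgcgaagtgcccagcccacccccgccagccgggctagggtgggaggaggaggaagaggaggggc

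The values are normalized counts, that is, read counts that the authors scaled with DESeq2 within each segment. From the spacing of low values, 1 read came to 0.586 to 2.07 normalized counts, depending on the library. The libraries held an implied 33.7 to 63.6 M (duodenum), 22.2 to 57.8 M (jejunum) and 10.9 to 36.4 M (ileum) reads, so a value of 0 allows up to 3 reads, or 1.76 to 6.21 normalized counts, counting error only. A 0 can also be a transcript that the quantification did not assign, so such a gene is called listed at 0. Some libraries stood apart before any member was read. Lgr5 itself was listed at 0 in the jejunal and the ileal library of sham replicate 1. Jejunal VSG replicate 1 had 196951 normalized counts of Fabp6, an ileal bile acid binding protein, against at most 312.7 in the other jejunal libraries. In bulk samples, fewer cells of a type and less RNA per cell cannot be told apart.

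Yap1 was the only 1 of the 9 genes found above 0 in all 16 libraries. Cyr61 was above 0 in 14, Clu and Anxa3 in 11, Ly6a and Wwtr1 in 9, Ctgf in 7, Il1rn in 6 and Anxa1 in 5. Of all values of the 9 genes, 44 of 54 duodenal values (81.5%), 29 of 54 jejunal values (53.7%) and 15 of 36 ileal values (41.7%) were above 0. Over the members with a mean above 10, which could be tested, they were 44 of 54 (81.5%), 29 of 48 (60.4%) and 15 of 28 (53.6%), and over all genes with such a mean 86.6%, 84.0% and 76.4%. The test took in 9, 8 and 7 of the genes. Il1rn in the jejunum and Clu and Wwtr1 in the ileum were listed at 0 in every library and could not be tested. Of the tested genes of the set, 5 of 9 duodenal, 6 of 8 jejunal and 6 of 7 ileal ones had a 0 in at least 1 library, compared with 28.5%, 34.8% and 46.1% of all genes tested. The set was thus patchy among these libraries, most of all below the duodenum. Ileal VSG replicate 5 held only Yap1, at an implied 32.0 M reads, and jejunal VSG replicate 3 held Anxa3, Cyr61 and Yap1, at 23.8 M.

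**Figure D1:**
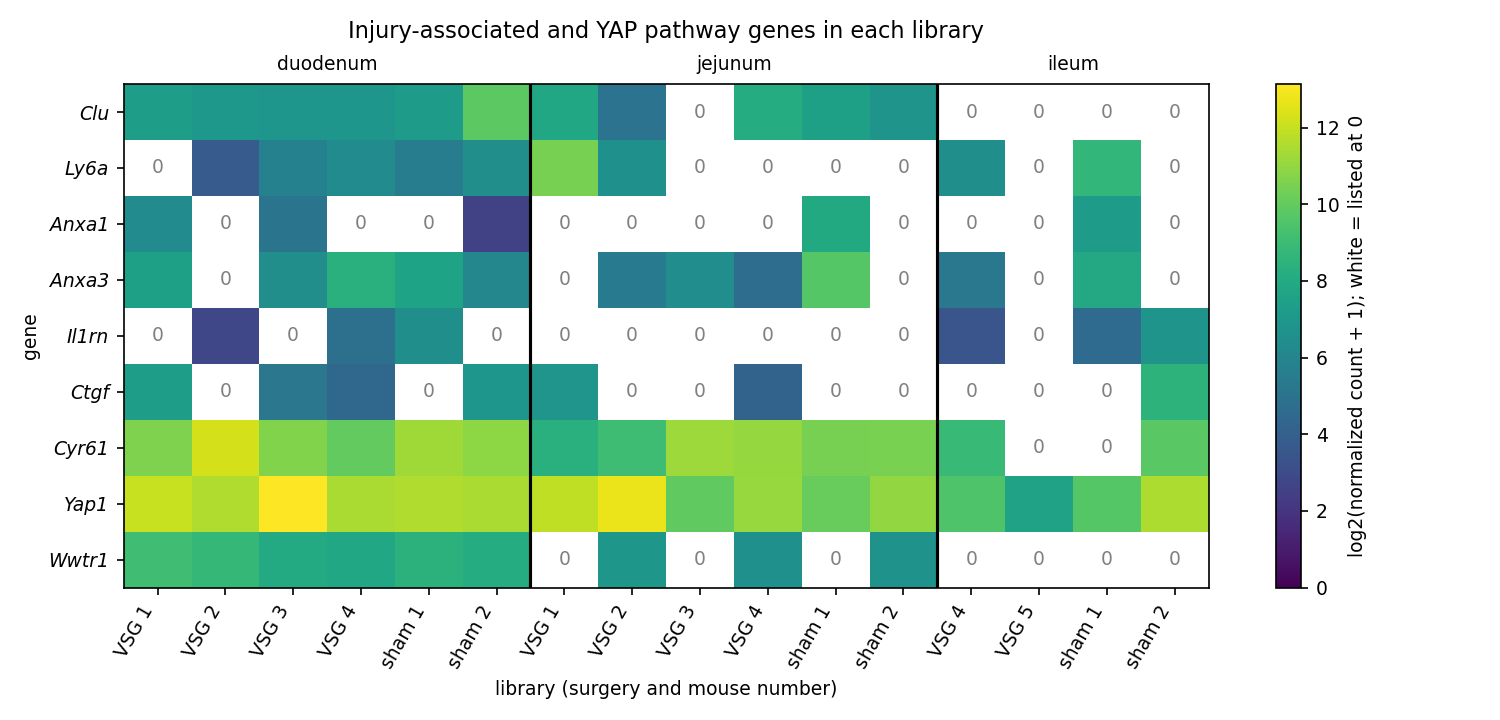
Level of each of the 9 genes (rows) in each of the 16 libraries (columns, by segment, surgery and mouse number), as log2(normalized count + 1), with 0 printed where a gene is listed at 0. Yap1 is the only filled row, and 29 of 54 jejunal and 15 of 36 ileal values lie above 0.

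To compare genes with each other, levels were divided by exon length. In the duodenum, Cyr61 had a mean of 1110 normalized counts per kb (496 to 2440 over 6 libraries), above 86.2% of the genes tested, and Yap1 had 449 (305 to 973), above 69.2%. Clu followed at 77.3 per kb (34.1 to 264.0) and Wwtr1 at 73.1 (48.9 to 114.0). Ly6a had 39.2 per kb, Anxa3 38.7, Ctgf 19.9, Anxa1 6.75 and Il1rn 3.75, each with a range that overlapped that of its neighbours in this order. The only neighbours whose ranges did not overlap were Yap1 and Clu. The pair at the top was the same in the other segments, with Cyr61 at 683 per kb (162 to 1190) and Yap1 at 305 (107 to 739) in the jejunum, and Cyr61 at 167 (0 to 432) and Yap1 at 126 (20.4 to 316) in the ileum. The ranges of Cyr61 and Yap1 overlapped in all 3 segments. Ly6a came next in both, with 207 per kb (0 to 1160) in the jejunum and 104 (0 to 338) in the ileum, and overlapped both genes. The segments were normalized separately, so levels were not tested between them. For scale, the stem cell genes Lgr5 and Olfm4 had 231 and 19600 per kb in the duodenum.

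VSG was compared with sham surgery within each segment on log2(normalized count + 1), using limma, which fits a linear model and shares information on variance between genes. Following the study, a call needed an unadjusted p under 0.05, a Benjamini-Hochberg adjusted p under 0.2, a log2 fold change beyond 0.5 in size and a mean normalized count above 50. No member was called in any segment. Over all genes, 0.0237% of 16867 (duodenum), 0.0126% of 15857 (jejunum) and 0% of 13853 (ileum) were called, so few genes of any kind passed. At these thresholds the study called far more genes in every segment with its own test, DESeq2. The lack of called members here is thus not the outcome of that test. No member had an unadjusted limma p under 0.05 either, against 6.27%, 6.04% and 3.28% of all genes tested. Exact two-sided permutation tests over the libraries cannot give a p below 0.0667 with 4 against 2 libraries, or 0.333 with 2 against 2. The VSG and sham libraries overlapped for all 9 genes tested in the duodenum and all 8 in the jejunum, where 14.4% and 12.8% of all genes did not overlap. They did not overlap for 2 of 7 in the ileum, where 28.6% of all genes did not. Of the tested members, 4 of 9, 4 of 8 and 0 of 7 were higher after VSG, against 50.7%, 55% and 57% of all genes tested. Their median log2 fold change was -0.20, -0.26 and -2.05, or -0.20, -0.55 and -1.34 without genes that a whole group listed at 0. The ileal members share the same 2 against 2 libraries, and their common direction was not tested.

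Among the injury genes, Clu encodes clusterin, a secreted chaperone that marks the so-called revival stem cells of the damaged crypt (chromosome 14, 65968483 to 65981547, plus strand, GRCm38). In the duodenum it had 166.4, 129.1, 117.4 and 119.2 normalized counts in VSG replicates 1 to 4, and 153.6 and 907.5 in sham replicates 1 and 2. The VSG libraries were close together and the high value was a sham library. The log2 fold change (VSG minus sham) was -1.50 ± 0.95 (SE, n = 4 and 2), with a 95% interval of -3.63 to 0.63, a limma adjusted p of 0.88 and an exact permutation p of 0.133. Without sham replicate 2, the log2 difference was -0.22. Without sham replicate 1 it was -2.78 with a limma adjusted p of 0.245, so the size rests on sham replicate 2. That library also had the highest summed level of 12 stromal genes, 3057 normalized counts against 467.9 to 882.7 in the other duodenal libraries, with Col1a2, a collagen of fibroblasts, at 861.9 against 0 to 20.24. Of the 12 stromal genes, 8 to 9 were above 0 in the duodenal sham libraries and 5 to 9 in the VSG libraries. Over the 16 libraries, the centred log2 values of Clu and of this sum had an r of -0.11 and a rho of 0.11, or an r of 0.05 without 2 libraries. Clu was listed at 0 in every ileal library, so its centred values did not vary there. Here and below, the 2 libraries left out were those farthest from the median of the second-named quantity. Extreme values of the first-named one can thus remain.

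In the jejunum, Clu had 235.7, 31.16, 0 and 276.1 normalized counts after VSG and 176.3 and 111.2 after sham surgery. The sham values lay inside the VSG range (limma adjusted p = 0.85, exact permutation p = 0.733). In the ileum Clu was listed at 0 in all 4 libraries.

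Ly6a encodes Sca-1, a surface protein of fetal and repairing gut epithelium (chromosome 15, 74994877 to 74998031, minus strand). It has close relatives on this chromosome, such as Ly6c1, with which reads could be shared, but its values are whole reads in every library, within 0.01 of a read. In the duodenum there were 0, 13, 73 and 78 reads after VSG, or 0, 12.62, 53.79 and 79.98 normalized counts. The sham libraries had 51 and 86 reads, or 47.13 and 90.17 normalized counts, inside or just above the VSG range. The log2 fold change was -2.08 ± 2.08 (SE), with an interval of -6.75 to 2.59 (limma adjusted p = 0.886, exact permutation p = 0.6). In the jejunum Ly6a had 1400 and 94.28 normalized counts in VSG replicates 1 and 2, from 929 and 116 reads, and was listed at 0 in VSG replicates 3 and 4 and in both sham libraries. The jejunal signal was thus in 2 of 4 VSG libraries, nearly all of it in the one with the ileal Fabp6 level. The permutation p was 0.467 (exact), and the limma adjusted p was 0.774, or 0.842 without VSG replicate 1. In the ileum it had 93.1 and 0 after VSG and 407.6 and 0 after sham surgery, so each group had 1 library with Ly6a and 1 without.

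The annexins bind membranes when calcium is present, and Anxa1 also promotes resolution of inflammation and closure of epithelial wounds (chromosome 19, 20373428 to 20390944, minus strand). In the duodenum Anxa1 had 80.99, 0, 32.14 and 0 normalized counts after VSG and 0 and 4.728 after sham surgery. In the jejunum it was listed at 0 in all 4 VSG libraries and had 250.2 and 0 in sham replicates 1 and 2. The ileum had the same arrangement, with 0 and 0 after VSG and 153.7 and 0 after sham surgery. Thus below the duodenum Anxa1 appeared only in mouse sham 1, the mouse whose jejunal and ileal libraries had no Lgr5. The limma adjusted p was 0.912, 0.76 and 0.736 in the 3 segments. With sham replicate 2 left out of the jejunum, Anxa1 alone among the members was called (limma adjusted p = 0.0222), since sham replicate 1 was then the whole sham group. That change raised the jejunal calls over all genes from 2 to 2710.

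Anxa3 (chromosome 5, 96793339 to 96845966, plus strand) showed the same mouse. Jejunal values were 0, 40.39, 86.83 and 24.89 after VSG and 804.1 and 0 in sham replicates 1 and 2, and ileal values were 37.06 and 0 after VSG and 243.9 and 0 after sham surgery. The highest value of both segments was again sham replicate 1 and the other sham library was at 0. In the duodenum that mouse was not the highest, with 175.8, 0, 90.53 and 317.9 after VSG and 194.3 and 66.73 after sham surgery. The log2 fold changes were -1.27 ± 2.24 (SE), -0.70 ± 3.12 and -1.34 ± 4.21 from duodenum to ileum (limma adjusted p = 0.919, 0.954 and 0.949). The jejunal fold change turned to 4.13 without sham replicate 1, and to 0.68 without VSG replicate 1. Over the 16 libraries, centred within each segment, the log2 values of Anxa1 and Anxa3 had a Pearson r of 0.60 and a Spearman rho of 0.31, or an r of 0.58 without 2 libraries, as a description of libraries that share mice. In the jejunum sham replicate 1 also had the lowest summed level of 12 stem cell genes, 19221 against 52356 to 71906 in the others, and the highest of 10 enterocyte genes, 1927926 against 329262 to 797924. Over the 16 libraries, Anxa3 had an r of 0.26 and a rho of 0.08 with the enterocyte sum (r of -0.21 without 2 libraries) and an r of -0.42 and a rho of -0.21 with the stem cell sum (r of 0.13 without 2 libraries). The part of the cell mixture in the annexin values was not tested beyond this.

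Il1rn encodes the secreted antagonist of the interleukin-1 receptor (chromosome 2, 24336853 to 24351494, plus strand). Duodenal values were 0, 6.042, 0 and 27.36 after VSG and 91.05 and 0 after sham surgery. It was listed at 0 throughout the jejunum. In the ileum it had 10.22 and 0 after VSG and 23.26 and 110.5 after sham surgery, so both VSG libraries were below both sham libraries. The ileal log2 fold change was -3.96 ± 3.36 (SE, n = 2 and 2), with an interval of -12.32 to 4.41, a limma adjusted p of 0.736 and an exact permutation p of 0.333, the smallest that 2 against 2 libraries can give. It was -2.21 without VSG replicate 5, -2.86 without sham replicate 2, -5.06 without sham replicate 1 and -5.70 without VSG replicate 4.

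**Figure D2:**
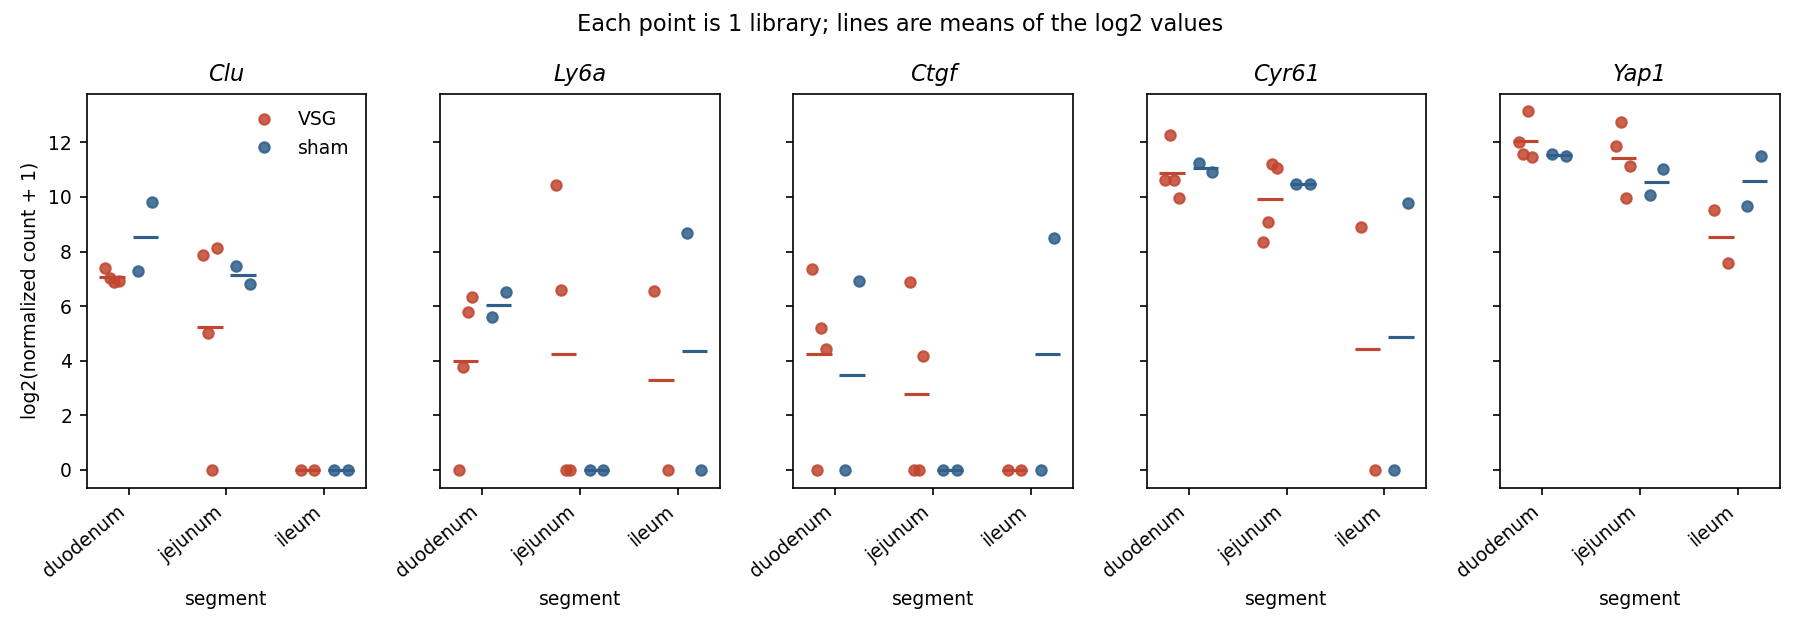
Normalized counts of Clu, Ly6a, Ctgf, Cyr61 and Yap1 as log2(normalized count + 1) by segment, with 1 point for each library (VSG red, sham blue) and a line at the mean of each group. The single high Clu point of the duodenum is sham replicate 2 (907.5 normalized counts) and the single high Ly6a point of the jejunum is VSG replicate 1 (1400).

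Of the YAP targets, Ctgf (Ccn2, chromosome 10, 24595442 to 24598683, plus strand) encodes a secreted matrix protein of the CCN family. The duodenal libraries had 117, 0, 49 and 20 reads after VSG, or 164.7, 0, 36.1 and 20.51 normalized counts, and 0 and 114 reads after sham surgery, or 0 and 119.5 normalized counts. Both groups had libraries with and without it, and the log2 fold change was 0.80 ± 2.63 (SE, limma adjusted p = 0.963). In the jejunum it had 116.1 and 16.99 in VSG replicates 1 and 4 and was listed at 0 in the other 4 libraries (limma adjusted p = 0.8, exact permutation p = 0.467). In the ileum only sham replicate 2 had it, at 356.2 normalized counts from 172 reads. That was also the 1 ileal library with Col1a2 above 3.033, at 455.8. The other collagen genes Col1a1 and Col3a1 were listed at 0 in it, and ileal Col3a1 was highest in sham replicate 1, at 352.9. The sum of the library over the 12 stromal genes, 657.2, lay between the 511.2 and 1043 of other ileal libraries. Over the 16 libraries, the centred log2 values of Ctgf and of this sum had an r of 0.16 and a rho of -0.01, or an r of 0.09 without 2 libraries.

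Cyr61 (Ccn1, chromosome 3, 145646976 to 145649981, minus strand), another CCN protein, was the highest of the set per kb. In the duodenum it had 1563, 4933, 1588 and 1001 normalized counts after VSG and 2419 and 1914 after sham surgery. VSG replicate 2 stood above the rest, and the sham libraries lay inside the VSG range. The log2 fold change was -0.20 ± 0.55 (SE), with an interval of -1.44 to 1.04 (limma adjusted p = 0.95, exact permutation p = 0.867). In the jejunum it had 327.1, 538.1, 2394 and 2157 after VSG and 1415 and 1441 after sham surgery, so the VSG libraries fell on both sides of the sham libraries, at -0.55 ± 0.80 (SE, limma adjusted p = 0.85). In the ileum it had 473.4 and 0 after VSG and 0 and 871.8 after sham surgery, so again each group had 1 library with the gene and 1 without. Cyr61 is also an immediate early gene, induced quickly by handling of cells. The summed level of 13 immediate early genes such as Fos and Egr1 was highest in the same duodenal library, VSG replicate 2, at 325754 normalized counts against 85341 to 224127 in the others. The part of handling in the Cyr61 values was not tested. Over all 16 libraries, the centred log2 values of Cyr61 and of this sum had an r of -0.06 and a rho of 0.16, or an r of 0.28 without 2 libraries. Those of Cyr61 and Ctgf had an r of 0.22 and a rho of -0.01, or an r of 0.00 without 2 libraries.

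Yap1 lies on chromosome 9 (7931999 to 8004596, minus strand). Its duodenal level was 4133, 3031, 9011 and 2821 normalized counts after VSG and 3049 and 2878 after sham surgery. The sham libraries lay within the range of the VSG libraries, of which replicate 3 was far above the others. The log2 fold change was 0.51 ± 0.43 (SE), with an interval of -0.46 to 1.49 (limma adjusted p = 0.88, exact permutation p = 0.667). It was 0.15 without VSG replicate 3 and 0.47 to 0.71 with any other library left out. In the jejunum Yap1 had 3703, 6842, 990.5 and 2231 after VSG and 1078 and 2079 after sham surgery, with 3 of 4 VSG libraries above both sham libraries and VSG replicate 3 below them. The jejunal log2 fold change was 0.87 ± 0.67 (SE), with an interval of -0.63 to 2.37 (limma adjusted p = 0.782, exact permutation p = 0.467). With each library left out in turn it ranged from 0.40 (without sham replicate 1) to 1.36 (without VSG replicate 3). The latter had an unadjusted limma p of 0.0341 and an adjusted p of 0.796. In the ileum Yap1 had 738.6 and 189.0 after VSG and 823.5 and 2924 after sham surgery, both VSG libraries lying below both sham libraries. That log2 fold change was -2.05 ± 1.08 (SE, n = 2 and 2), with an interval of -4.75 to 0.65, a limma adjusted p of 0.736 and a permutation p of 0.333 (exact). It was -1.07 without VSG replicate 5, -1.14 without sham replicate 2, -3.03 without VSG replicate 4 and -2.96 without sham replicate 1. Yap1 and Il1rn were the 2 genes whose ileal groups did not overlap.

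Wwtr1 encodes TAZ, the close relative of YAP (chromosome 3, 57455649 to 57575910, minus strand). In the duodenum it had 544.6, 433.5, 263.4 and 233.6 normalized counts after VSG and 344.3 and 276.0 after sham surgery, all above 0 and with the sham libraries in the middle (log2 fold change 0.17 ± 0.66 SE, interval -1.30 to 1.65, limma adjusted p = 0.968). In the jejunum it had 0, 124.3, 0 and 94.25 after VSG and 0 and 104.3 after sham surgery, so that the libraries that had it were at a like level in both groups (limma adjusted p = 0.999). The ileum had no value above 0. Wwtr1 RNA was thus found in every duodenal library and in 3 of 6 jejunal libraries, in contrast to that of Yap1, which every library had.

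**Figure D3:**
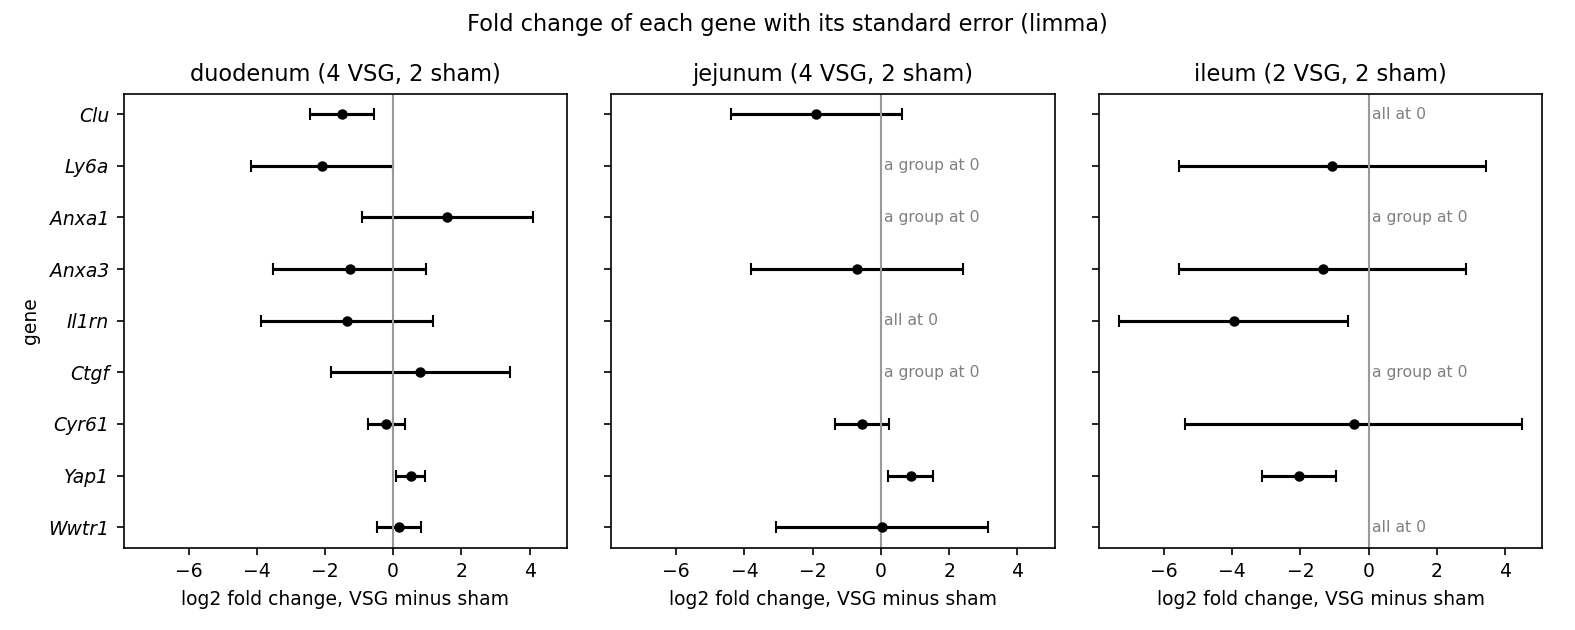
Log2 fold change of each gene (VSG minus sham, from limma on log2(normalized count + 1)) with its standard error in the 3 segments, leaving out genes that a whole group or all libraries list at 0. The narrowest bars are those of Yap1 and Cyr61 in the duodenum (0.51 ± 0.43 and -0.20 ± 0.55), and no gene was called.

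The effect of surgery was compared between the duodenum and the jejunum within the 6 mice that had both, by subtracting the duodenal log2 value of a mouse from its jejunal one and fitting limma to these differences. No member had an unadjusted p under 0.05, against 4.10% of the 14718 genes tested, and 0% of all genes had an adjusted p under 0.2. The difference of the log2 fold changes (jejunum minus duodenum) was 0.36 ± 1.03 (SE) for Yap1, -0.35 ± 1.18 for Cyr61 and -0.39 ± 2.64 for Clu, with limma adjusted p-values of 0.994, 0.995 and 0.999. The smallest unadjusted limma p-values were 0.16 for Anxa1 and 0.216 for Ly6a, both with a jejunal group listed at 0. Over these 8 genes, a difference between segments was thus not detectable with 6 mice.

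The rest of the pathway was read from lists of genes that are not members. Levels of RNA do not show whether the YAP and TAZ proteins were in the nucleus. Of 23 Hippo kinases, adaptors and TEAD factors, none was called in any segment. In the duodenum 1 had a higher and 1 a lower value after VSG at an unadjusted limma p under 0.05. These were Nf2, an upstream activator of the Hippo kinases (log2 fold change 1.07 ± 0.29 SE, limma adjusted p = 0.485), and Stk4, a Hippo kinase (-0.998 ± 0.387, limma adjusted p = 0.69). Nf2 had 5173, 5998, 4634 and 8950 normalized counts after VSG and 3077 and 2637 after sham surgery, with no overlap. In the jejunum these were Tead1, a DNA-binding partner of YAP (2.35 ± 0.86, limma adjusted p = 0.76), and Stk4 (-1.42 ± 0.54, limma adjusted p = 0.76). Stk4 had 3425, 1695, 1327 and 1604 in the duodenum after VSG against 4255 and 3298 after sham surgery. In the jejunum it had 1091, 2853, 876.2 and 871.9 against 4337 and 2551. The Stk4 groups overlapped in both segments, with VSG replicate 1 (duodenum) and VSG replicate 2 (jejunum) above the lower sham library. The most abundant gene of the list was the kinase Taok3. No gene of this list had such a p in the ileum, and the list's median log2 fold change was 0.18, 0.17 and 0.04 in the 3 segments beside 0.01, 0.11 and 0.24 over all genes tested. Without genes that a whole group listed at 0, these were 0.15, 0.14 and 0.04 beside -0.03, 0.03 and 0.09.

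Of 20 further YAP and TAZ target genes, 15, 13 and 12 were tested in the duodenum, jejunum and ileum, and none was called or had an unadjusted limma p under 0.05. Their median log2 fold change was 0.02, -0.32 and 1.30, or -0.11, -0.44 and 0.68 without genes that a whole group listed at 0. The ileal median rests on 2 against 2 libraries, and there 2 of the genes with the smallest p, Lats2 and Nuak2, had the opposite sign. Lats2, a Hippo kinase that is itself a YAP target, had 151.9 and 0 after VSG and 731.0 and 1107 after sham surgery, and Nuak2 had 1461 and 125.2 against 2374 and 2705. The most abundant gene of this list, Gadd45a, a DNA damage response gene, ranged from 1174 to 6140 over the 16 libraries.

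Of 25 further genes of repairing or fetal-like epithelium, 19, 17 and 17 were tested and none was called. Krt7, a keratin, had a higher value after VSG at an unadjusted limma p under 0.05 in the duodenum (0.67 ± 0.24, limma adjusted p = 0.644) and the jejunum (1.91 ± 0.63, limma adjusted p = 0.76). Its duodenal values were 8068, 6139, 5356 and 6172 after VSG and 4277 and 3746 after sham surgery, which did not overlap. The jejunal values of Krt7 did overlap, with 10471, 6997, 8352 and 4366 after VSG and 779.7 and 4687 in sham replicates 1 and 2. Il33, a cytokine released from damaged epithelium, was the 1 gene with a lower value at that p in the duodenum (-1.75 ± 0.75, limma adjusted p = 0.77), with 197.2, 113.0, 136.5 and 327.5 after VSG and 499.6 and 723.7 after sham surgery. In the ileum the order of the Il33 groups was the opposite, with 59.64 and 72.58 after VSG and 0 and 0 after sham surgery (limma adjusted p = 0.736). The most abundant gene of the list was Anxa2, another annexin, at 7565 to 31740 over the 16 libraries. The list's median log2 fold change was -0.51, -0.03 and -0.52 in the 3 segments, beside the same medians over all genes tested as above, and -0.51, 0.01 and -0.55 without genes that a whole group listed at 0.

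**Figure D4:**
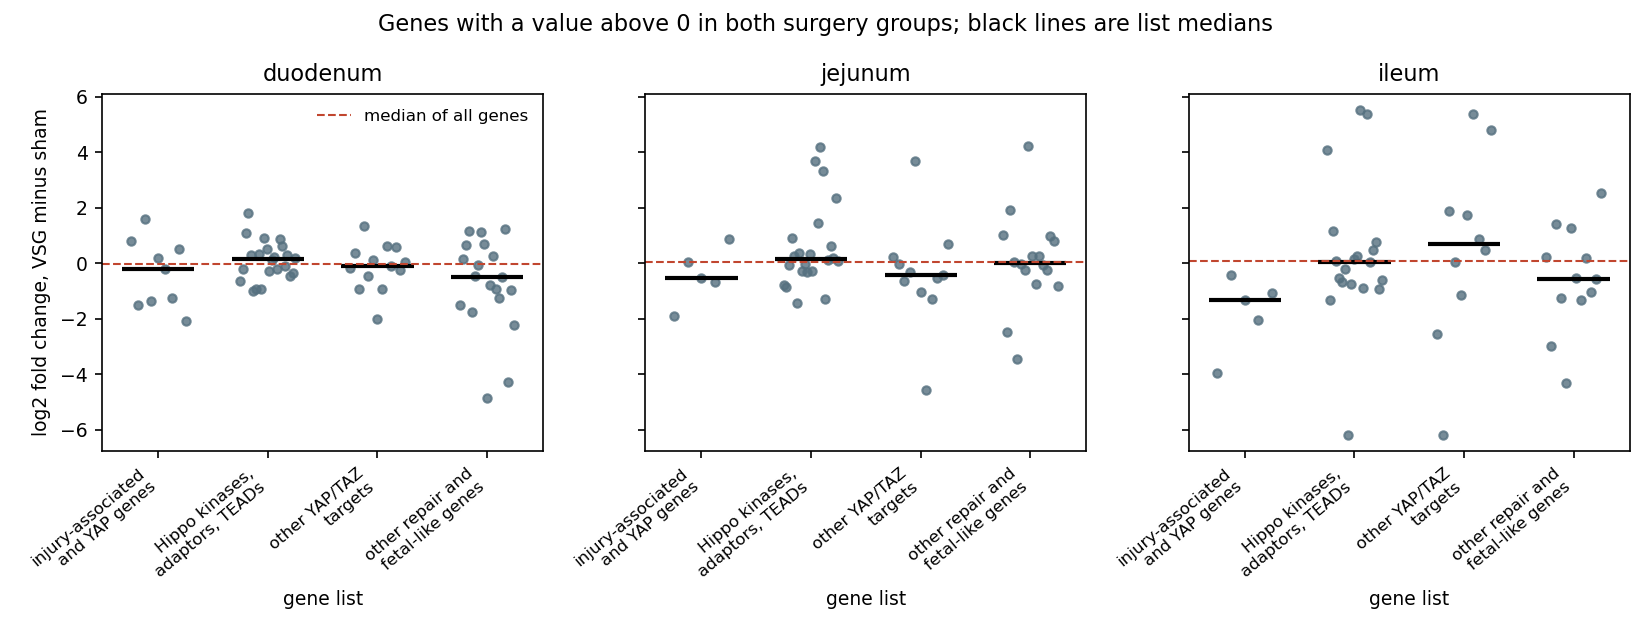
Log2 fold change (VSG minus sham) of the genes of the set, of Hippo kinases, adaptors and TEAD factors, of other YAP and TAZ targets and of other repair genes in each segment, for genes with a value above 0 in both surgery groups. Points are genes, black lines list medians and the dashed line the median of all such genes; the list medians lie between -1.34 (the set in the ileum) and 0.68 (YAP and TAZ targets in the ileum).

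Markers of other cell types were read in the same libraries. The enterocyte sum of the duodenum was 314773 to 617217 normalized counts after VSG and 714193 and 1018940 after sham surgery, and 7 of its 10 genes were lower after VSG at an unadjusted limma p under 0.05. In the jejunum all 10 were lower, 4 of them at that p. All 6 tuft cell genes were higher after VSG at that p in the duodenum and 3 of 6 in the jejunum. So were 1 of 6 goblet cell genes in the duodenum and 4 of 6 in the jejunum. VSG and sham libraries did not overlap for 4 of 6 tuft cell genes in the duodenum and 0 of 6 in the jejunum. For goblet cell genes this held for 1 of 6 in both, against 14.4% and 12.8% of all genes tested. The jejunal tuft cell sum was 1367 and 12594 in sham replicates 1 and 2 and 6218 to 21386 after VSG. That of the goblet cell genes was 88535 and 204703 in sham replicates 1 and 2 and 180493 to 342036 after VSG. No gene of these lists was called in any segment. Of the 12 stem cell genes, 9 in the duodenum, 11 in the jejunum and 9 of the 11 tested in the ileum had a log2 fold change above 0, with 0, 0 and 1 (Olfm4) at that p. The stem cell sum was 21926 and 15969 after VSG and 6885 and 10749 after sham surgery in the ileum, and the groups overlapped in the other segments. The immune sum of the duodenum was 588.0 to 3267 after VSG and 314.7 and 505.4 after sham surgery, with 1 gene (Ptprc) higher at that p. In VSG replicate 1, the library with 3267, Itgam alone had 2531. The immune list had 5 to 6 of 14 genes above 0 (duodenum), 4 to 7 (jejunum) or 1 to 4 (ileum). Ptprc (CD45), the antigen used to gate out immune cells, ranged from 0 to 1534. The immune cell markers Tyrobp and Coro1a were listed at 0 in every library. The sums themselves were not tested between the groups, nor was their part in the values of the 9 genes.

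For 3 of the 9 genes, the genes most alike over the 16 libraries were sought among 12587 genes with a mean above 10 in all segments, on log2 values centred within each segment. For Yap1 they were Csgalnact2 (Pearson r 0.87), Clip2 (0.86) and Commd10 (0.85). For Ly6a they were Dbnl (0.91), Nelfb (0.87) and Spint2 (0.83), and for Ctgf they were Cbfa2t2 (0.82), Tet2 (0.78) and Plekhf2 (0.76). No other member was among them. Clu, listed at 0 in the ileum, was not ranked. These are the highest of many values over libraries that share mice and depth, and are given as a description.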

How the data were processed

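RNA-Seq libraries (polyA RNA, NEBNext Ultra II Directional kit) were made from GFP+ ISCs of 7 mice. The authors used STAR (2.5.3a) for alignment to mm10, Salmon (0.6.0) for transcript abundance and DESeq2 for normalization within each segment, and deposited signal values, that is, normalized counts for each gene and library. Libraries with mapping below 25% (15% in the ileum) were left out by them, 1 sham library per segment and 2 ileal VSG libraries. Their deposited tables of fold changes and p-values between surgeries were not used. Only 44.3% to 47.3% of values above 0 are whole reads times 1 factor per library (within 0.01 read), so no count model was run.

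Here limma 3.58.1 (R 4.3.3), with its variance prior following the mean level, was fitted to log2(normalized count + 1) in each segment over genes with a mean above 10, with Benjamini-Hochberg adjustment over all of them. This pseudocount understates changes of low genes. Exact permutation tests covered 15 splits (4 against 2) or 6 (2 against 2). Sample groups came from the labels. The labels do not say that libraries of a group were prepared apart, beyond their mice. Positions are from GENCODE M21 (GRCm38), where 48058 of the identifiers matched and Ctgf and Cyr61 are named Ccn2 and Ccn1. Promoter windows are from RefSeq. The steps were tested on simulated data. All members, the genes of smallest p or highest level in each list and the most alike genes were named. Members and lists were chosen with earlier results of these data known. Alternatives were other pseudocounts, filters, normalizations and thresholds, no variance trend, a block on replicate number, and each library left out in turn. Tables were made in Python 3.11.15 (pandas 2.3.3, numpy 2.4.6) and plots with matplotlib 3.10.9.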

Additional observations from a re-analysis of the deposited data

Results flagged for a closer look

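In each group of 4 libraries, the highest and lowest value of every gene was compared with the rest, and 3 of 16 groups had a library whose gap to the nearest other was above Dixon's 95% critical value, as a share of the group's range. Chance flags about 1 in 20 groups when values follow a normal distribution. The values compared here were normalized counts, often low and skewed, for which the chance rate was not tested. The 3 of 16 groups are thus not read as an excess. Cyr61 in duodenal VSG replicate 2 had 4933 normalized counts, with a gap of 0.851 of the range. Ly6a in jejunal VSG replicate 1 had 1400 (gap 0.933). Ctgf in that same jejunal library had 116.1 (gap 0.854). The groups of 2 libraries were too small for this comparison.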

How the results depend on the processing

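The count of members called stayed at 0 in each segment under all alternatives tried except 1, leaving out sham replicate 2 in the jejunum, where it was 1 (Anxa1). Of 424 values of single members under an alternative, 390 kept their direction and their side of the thresholds and 33 changed sign, 28 of them when a library was left out. The log2 fold changes that crossed 0 ranged, with each library left out in turn, from -2.18 to 0.59 for Anxa3, -2.66 to 4.25 for Ctgf, -0.67 to 0.10 for Cyr61 and -0.045 to 0.36 for Wwtr1 in the duodenum, from -5.52 to 4.13 for Anxa3 and -3.33 to 3.39 for Wwtr1 in the jejunum, and from -5.31 to 2.63 for Anxa3, -5.32 to 4.44 for Cyr61 and -5.40 to 3.28 for Ly6a in the ileum. For the jejunal minus duodenal difference they ranged from -1.998 to 1.31 for Clu, -3.49 to 4.64 for Anxa3, -1.49 to 5.42 for Ctgf, -1.03 to 0.41 for Cyr61, -0.24 to 1.21 for Yap1 and -3.66 to 3.37 for Wwtr1. Where this left 1 library in a group, that library was assumed to vary like the rest. Quantile normalization gave -0.40 for Wwtr1 in the jejunum and -0.67 for the Anxa3 difference, and a pseudocount of 10 gave 0.42 for the Clu difference and -0.82 for the Anxa3 difference. The causes were not tested. VSG and sham mice share only a number, and the deviations of same-numbered libraries had an r of -0.05 and -0.03 in the duodenum and 0.05 and 0.01 in the jejunum. The replicate block gave 0.37 for Cyr61 in the duodenum, left 0 members called, and gave 3 jejunal members (Ly6a, Cyr61 and Yap1) an unadjusted p under 0.05. VSG replicates 3 and 4 have no sham library of their number, so the effect in that fit came from replicates 1 and 2 only. The share of all genes with such a p was not counted for it, so these 3 are not read as a result. The ileal groups share no number, so no paired fit was made there. Over all genes, the calls of 4, 2 and 0 in the duodenum, jejunum and ileum became 43, 61 and 463 without the trend, 10, 3 and 3 with a pseudocount of 10, and 0, 0 with the block. With a pseudocount of 0.5, a mean above 50, no filter, one library total or an adjusted p under 0.05, the duodenal calls were 0, and the jejunal calls were 1 with the last. Leaving out a library gave 0 to 259, 1 to 2710 and 0 to 631 calls. With only 2 sham mice in every segment, the intervals of most members span several log2 units, and a failed test does not show that the groups were alike.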
